A study of Mus musculus with 6 samples.

Results

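Cadherins and protocadherins were examined in mouse enterospheres kept with or without thyroid hormone. Members were taken from the platform's gene names as every gene whose symbol was Cdh followed only by a number, or began with Pcdh, with a probe set of its own single symbol, and each gene was represented by its brightest probe set. This gave 57 genes of the 19938 measured, 23 numbered cadherins and 34 protocadherins, of which 22 belonged to the beta cluster and 12 lay outside the clusters. The names are wider than the classical cadherins, since the numbered set also holds Cdh13, Cdh16, Cdh17, Cdh23 and Cdh26. The RefSeq gene table lists 92 genes of these names, and the other 35, all of the alpha and gamma clusters, were not analysed here as single genes.

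Cadherins are calcium-dependent adhesion proteins of the cell surface. Classical cadherins bind the same or related cadherins on the neighbouring cell and are held to the actin cytoskeleton by catenins. Type I members give firm adhesion, and type II members mark groups of neurons and of neural crest cells. Protocadherins lack the catenin-binding tail. The clustered ones give single neurons a surface identity, and the delta protocadherins outside the clusters act in axon growth and cell sorting. In the developing gut, N-cadherin and other adhesion proteins are needed when crest-derived cells move in and gather into ganglia.

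The spheres were grown from the gut muscle of newborn C57BL/6 mice aged up to 12 hours, and the cells of 3 mice entered each sample. After 4 and then 5 days with EGF and FGF, free-floating spheres were kept for 1 day in differentiation medium without these factors. The 3 samples of group T3 then received triiodothyronine at 100 nm (the unit as the labels write it) for 1 day, while the 3 control samples stayed in the same medium without it. Each of the 6 samples was measured on its own array, and the values are log2 expression values in which a difference of 1 is a doubling of signal.

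The arrays were alike in level, with medians between 6.09 and 6.15, and the number of arrays limits the precision of every value. The label of neural progenitor cells was checked against markers. All 6 measured progenitor markers, Sox10 and Ret among them, lay above the array median on every array. So, however, did all 6 glial, all 9 fibroblast and mesenchyme, 11 of 12 neuron and all 4 interstitial cell of Cajal markers. Of 8 smooth muscle markers 4 did, and of 9 endothelial markers 3. Of 8 macrophage markers 0 did, of 8 epithelial markers 1 and of 6 mesothelial markers 1. Markers of several cell types were thus bright in the same samples. A lower value can come from fewer cells of a type or from less RNA per cell, which bulk samples cannot tell apart.

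Few of these genes were called, though a larger share than among all genes, and they changed by unequal amounts. With limma (two-sided, Benjamini-Hochberg adjustment over all 19938 genes, called at an adjusted p under 0.05), 4 of the 57 genes were higher and 3 were lower with T3, against 2.28% of all genes higher and 0.823% lower. Among numbered cadherins Cdh12 rose and Cdh13 fell, 2 of 23 genes or 8.70%. Among protocadherins Pcdh11x, Pcdh20 and Pcdhb7 rose and Pcdh18 and Pcdh12 fell, 5 of 34 genes or 14.7%. In either direction 12.3% of the 57 genes were called, against 3.10% of all genes. The differences between the shares of the families, and from the share of all genes, were not tested. The members were chosen with earlier results of these data known. Larger shares here and below may follow in part from that choice, so they give no support to a response of the family. The median log2 change was 0.04 over the numbered cadherins and 0.03 over the protocadherins, against 0.0088 over all genes. A change of more than 0.5 on the log2 scale in either direction was shown by 7 of the 57 genes, 12.3%, against 2.34% of all genes. Of the 57 members, 22 or 38.6% had groups apart, against 19.5% of all genes. Groups apart means that the 3 T3 values were all above or all below the 3 control values. T3 was above control for 13 of the 22 (11.9% of all genes) and below for 9 (7.55% of all genes). An unadjusted p under 0.05 (limma) was reached by 20 members, or 35.1%, against 13.7% of all genes.

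**Figure D1:**
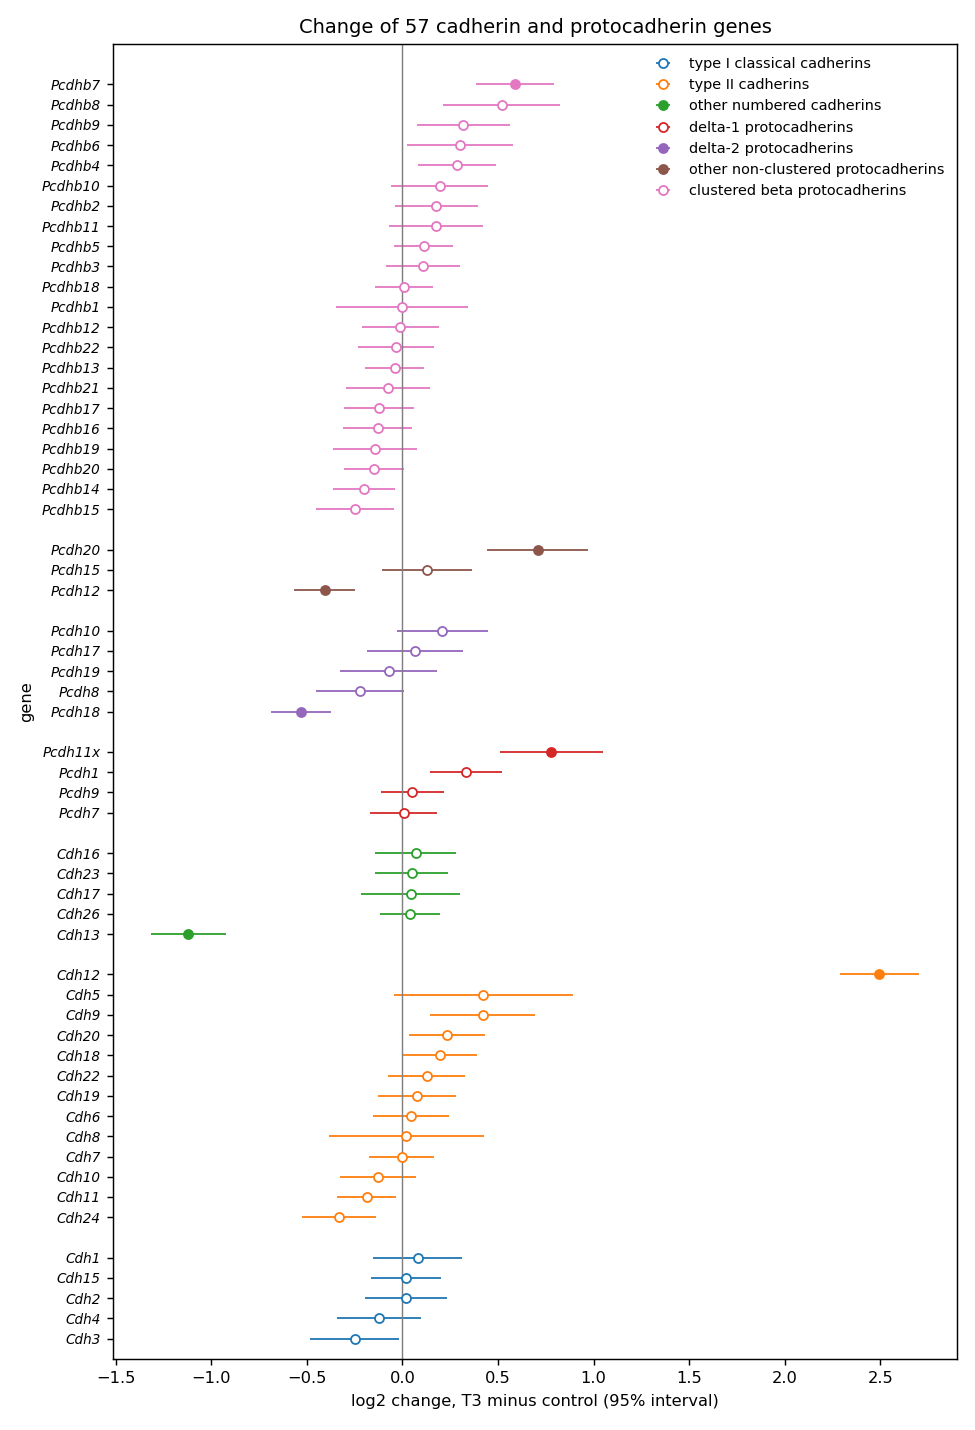
Log2 change with T3 minus control (horizontal axis) for the 57 genes (vertical axis), grouped by subfamily and colour. Points are limma estimates, bars their 95% intervals, and filled points passed the test over all genes; Cdh12 at 2.49 and Cdh13 at -1.12 lie outside the range of the other genes, which runs from -0.53 for Pcdh18 to 0.78 for Pcdh11x.

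Type I classical cadherins gave no call. Cdh2, which encodes N-cadherin, the type I cadherin of neural cells, had control values of 11.35, 11.34 and 11.29 and T3 values of 11.54, 11.25 and 11.23. The groups overlapped, and the 95% interval of the log2 change ran from -0.20 to 0.23. Cdh1, the epithelial E-cadherin, was at 4.91 to 5.29 in controls and 5.17 to 5.22 with T3, below every array median, and its change of 0.08 had an interval of -0.15 to 0.31. Cdh15, the cadherin of muscle precursors, was also below every array median and changed by 0.02 (interval -0.17 to 0.20). Cdh4, or R-cadherin, changed by -0.12 (interval -0.34 to 0.10). Cdh3, the P-cadherin of epithelia, was the only one of the 5 whose groups did not overlap, with control values of 6.01, 5.98 and 6.06 and T3 values of 5.88, 5.54 and 5.88. Its log2 change of -0.25 ± 0.10 (SE) did not pass the test (limma, adjusted p = 0.318).

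The type II cadherins held the gene that rose most. Cdh12 (probe set 10423258), a cadherin of brain neurons, had log2 values of 4.39, 4.60 and 4.52 in controls and of 7.15, 6.91 and 6.94 with T3. Every T3 sample was more than 2 units above every control sample. The log2 change was 2.49 ± 0.09 (SE; 95% interval 2.29 to 2.70), a 5.63-fold difference in signal, with adjusted p = 1.28e-05 (limma). The control values lay about the 25th percentiles of the arrays, 4.47 to 4.53, and the files carry no detection calls, so the fold is that of the signal and may be smaller than that of the RNA. The 12 neuron markers had a mean log2 value of 9.66 to 9.88 over the control arrays and 9.91 to 10.02 over the T3 arrays. Of their changes 8 were above 0 and 4 below 0, with a median of 0.04. Called higher were 2 and called lower 0, together 16.7% against 3.10% of all genes. The 4 below 0 were Elavl3 at -0.13, Gap43 at -0.09, Syt1 at -0.04 and Uchl1 at -0.02. Prph, the neuronal filament peripherin, changed by 0.94 and passed in all 6 fits without 1 array. Snap25, of synaptic vesicle release, changed by 0.33 and passed in 0 of those 6 (adjusted p up to 0.156), and Nefl, a neurofilament, changed by 0.71 without passing (adjusted p = 0.202, limma). The 4 markers of interstitial cells of Cajal averaged 9.63 to 9.83 in controls and 10.01 to 10.09 with T3. Called higher were 2 of the 4, or 50% against 2.28% of all genes. Of these, Prkcq, a protein kinase C, changed by 0.73 and passed in all 6 fits without 1 array. Ano1, a chloride channel, changed by 0.43 and passed in 1 (adjusted p up to 0.145). The other 2, Kit and Etv1, changed by only 0.08 and 0.07 and did not pass (adjusted p = 0.854 and 0.777, limma). The part of either cell type in the result of Cdh12 was not tested.

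Of the other 12 type II cadherins 0 passed the limma test over all genes, against 3.10% of all genes. An unadjusted p under 0.05 was reached by 5 of the 12, against 13.7% of all genes. Cdh24, a type II cadherin of broad expression, had control values of 7.48, 7.44 and 7.51 and T3 values of 7.02, 7.11 and 7.30. Its groups were apart, with a change of -0.33 ± 0.08 (SE) and adjusted p = 0.0867. A second, dimmer probe set of Cdh24 changed by -0.12 and its groups overlapped. Cdh9, a cadherin of synapse specificity in the hippocampus, had 4.31, 4.60 and 4.36 in controls and 5.03, 4.62 and 4.89 with T3, a change of 0.42 ± 0.12 (SE) with adjusted p = 0.128. The highest control and the lowest T3 value of Cdh9 were almost equal.

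Cdh11, a cadherin of mesenchyme and of migrating neural crest, was slightly lower, at 10.74, 10.85 and 10.82 in controls and 10.60, 10.65 and 10.60 with T3. Its change of -0.19 did not pass (adjusted p = 0.239, limma). The 9 fibroblast and mesenchyme markers averaged 10.20 to 10.29 over the control arrays and 10.25 to 10.29 over the T3 arrays, but single markers moved in both directions. Thy1, which neurons also express, was called higher with a change of 1.24, and Twist1, a transcription factor of mesenchyme, was called lower at -0.49. The rise of Thy1 was the largest change of the 9 and is part of their mean. A level mean thus does not show that the other markers stayed level, and the median change of the 9 was -0.04. Of the 9, 6 had a change below 0 and 3 above. Groups were apart for 5 of the 9, or 55.6%, against 19.5% of all genes. T3 was below control for 3 of these 5 (7.55% of all genes) and above for 2 (11.9% of all genes). Among the 3 were Pdgfrb at -0.26 and Col1a2 at -0.24, which did not pass. The part of these cells in the value of Cdh11 was not tested. Cdh20, found in neural crest and motor neurons, had groups apart with a change of 0.23 (adjusted p = 0.269). Cdh19, a cadherin of Schwann cell precursors and enteric glia, had a change of 0.08 (interval -0.13 to 0.28). Of the 6 glial markers, Cdh19 itself among them, 0 passed (limma), against 3.10% of all genes. At an unadjusted p under 0.05 there were also 0, against 13.7% of all genes. Cdh22, Cdh8 and Cdh7, type II cadherins of nervous tissue, changed by 0.13, 0.02 and -0.0033, all with overlapping groups and adjusted p of at least 0.648.

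Cdh5, the cadherin of endothelial junctions, varied most among T3 samples. Its values were 6.26, 6.34 and 6.39 in controls and 6.24, 7.21 and 6.80 with T3, so that T3 replicate 1 lay below all controls and the other 2 lay above them. The change of 0.42 ± 0.20 (SE) did not pass (limma, adjusted p = 0.429), and without T3 replicate 1 it was 0.68 and passed (adjusted p = 0.0492). The mean of the 8 endothelial markers other than Cdh5 was 6.16, 6.09 and 6.31 on the control arrays and 6.12, 6.23 and 6.21 on the T3 arrays. T3 replicate 1 was thus the lowest T3 array for both, and the part of endothelial cells in the value of Cdh5 was not tested.

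Cdh12 has 4 relatives beside it in the genome. In the RefSeq gene order of GRCm38.p6, Cdh6, Cdh9, Cdh10 and Cdh12 follow each other on chromosome 15 with 0 other protein-coding genes between them, and Cdh18 follows after 1. Cdh6, which marks neural crest before it migrates, was at 10.59 to 10.70 in controls and 10.57 to 10.85 with T3. Cdh10, a cadherin of brain and brain vessels, was at 8.16 to 8.38 in controls and 8.01 to 8.18 with T3, and its interval ran from -0.32 to 0.07. Cdh18, close to Cdh12 in sequence and also neuronal, had 4.89, 4.74 and 4.94 in controls and 5.17, 5.02 and 4.97 with T3. Its groups were apart by a small gap, and its change of 0.20 ± 0.08 (SE) did not pass (adjusted p = 0.352, limma). A second probe set of Cdh18 changed by 0.16. Along this row, then, the log2 changes were 0.04 for Cdh6, 0.42 for Cdh9, -0.13 for Cdh10, 2.49 for Cdh12 and 0.20 for Cdh18, and the interval of Cdh12 lay above those of the other 4.

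**Figure D2:**
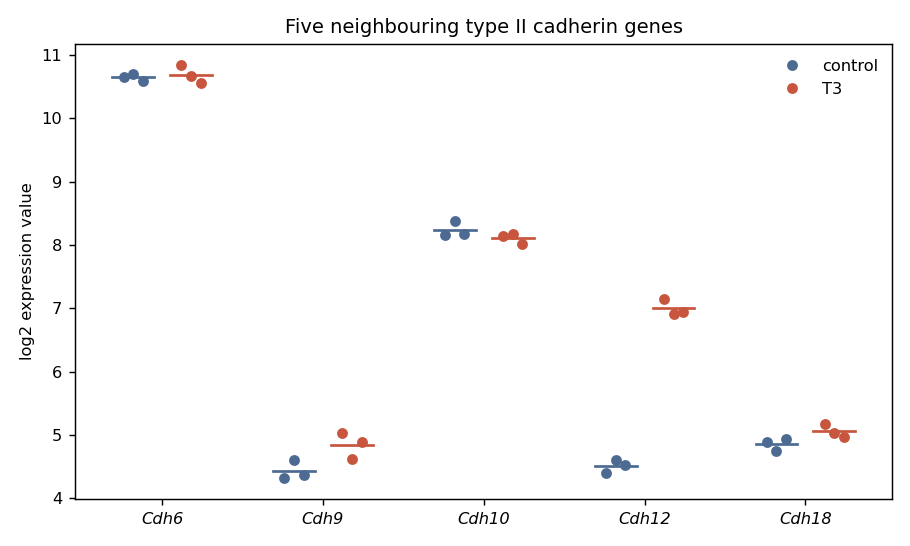
Log2 expression values (vertical axis) of the 5 neighbouring type II cadherin genes in their genomic order (horizontal axis); points are the 3 control (blue) and 3 T3 (red) arrays and bars their means. Cdh12 moved from between 4.39 and 4.60 to between 6.91 and 7.15, while for Cdh6 and Cdh10 the groups overlapped; heights of different genes come from different probes and are not comparable.

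The start regions of 4 genes are given because they belong to called genes with an entry in the RefSeq promoter table (Cdh12, Pcdh20 and Pcdh18) or to the neighbour of Cdh12 that holds the motif searched for (Cdh18). Each holds the 300 bases about the annotated start, most of them before it. The nuclear receptors of T3 bind sites built from the letters AGGTCA, often as a repeat with a gap of 4 bases. Capitals mark AGGTCA, read on the other strand as TGACCT.
Cdh12, GRCm38.p6 chr15:21111202-21111501, plus strand: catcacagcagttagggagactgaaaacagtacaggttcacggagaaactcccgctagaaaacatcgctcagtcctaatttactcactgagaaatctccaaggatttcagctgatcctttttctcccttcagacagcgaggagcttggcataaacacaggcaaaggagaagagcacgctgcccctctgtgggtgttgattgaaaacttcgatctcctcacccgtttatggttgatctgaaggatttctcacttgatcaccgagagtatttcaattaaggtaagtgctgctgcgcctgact
Cdh18, GRCm38.p6 chr15:23036213-23036512, plus strand: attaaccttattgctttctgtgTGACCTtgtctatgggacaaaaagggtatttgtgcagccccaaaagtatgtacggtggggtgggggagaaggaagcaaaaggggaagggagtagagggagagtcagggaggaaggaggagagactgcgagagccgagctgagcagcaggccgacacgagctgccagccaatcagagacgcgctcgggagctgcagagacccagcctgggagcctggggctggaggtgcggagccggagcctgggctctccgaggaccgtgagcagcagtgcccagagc
Pcdh20, GRCm38.p6 chr14:88471347-88471646, minus strand: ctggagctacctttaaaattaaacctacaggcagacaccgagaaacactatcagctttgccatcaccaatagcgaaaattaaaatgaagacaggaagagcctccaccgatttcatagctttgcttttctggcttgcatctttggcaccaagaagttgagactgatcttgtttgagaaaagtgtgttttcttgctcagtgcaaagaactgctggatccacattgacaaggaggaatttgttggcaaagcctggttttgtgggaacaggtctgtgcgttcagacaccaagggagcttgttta
Pcdh18, GRCm38.p6 chr3:49757267-49757566, minus strand: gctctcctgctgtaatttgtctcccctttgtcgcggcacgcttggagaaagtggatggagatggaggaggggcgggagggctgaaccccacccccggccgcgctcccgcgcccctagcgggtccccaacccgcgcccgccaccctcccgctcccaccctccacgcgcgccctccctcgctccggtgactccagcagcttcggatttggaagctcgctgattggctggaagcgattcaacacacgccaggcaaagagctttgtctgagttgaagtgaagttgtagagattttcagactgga

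Of the 25 start regions listed for 22 member genes, 1 held AGGTCA on either strand, that of Cdh18, against 16.3% of the 32851 start regions in the table. The repeat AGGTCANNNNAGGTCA was in 0 of the 25 and in 5 of all 32851. The windows of Cdh12, Pcdh20 and Pcdh18, whose levels differed with T3, do not hold these letters, which says nothing of sites elsewhere or of other spellings.

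Among the numbered cadherins that are not classical, Cdh13 stood out. Cdh13 (probe set 10575844) encodes T-cadherin, which is held to the membrane by a lipid anchor, lacks a cytoplasmic tail and binds adiponectin on vessel and muscle cells. Its log2 values were 9.37, 9.22 and 9.34 in controls and 8.06, 8.29 and 8.23 with T3. Every T3 sample lay well below every control sample. The change was -1.12 ± 0.08 (SE; 95% interval -1.31 to -0.93), so that the control signal was 2.17 times that with T3, with adjusted p = 0.000617 (limma). The 8 smooth muscle markers averaged 7.02 to 7.19 in controls and 7.16 to 7.24 with T3, and the 8 endothelial markers other than Cdh5 averaged 6.09 to 6.31 and 6.12 to 6.23, so the groups of both lists overlapped. Of the smooth muscle markers Myh11 and Myocd were called higher and Tagln and Acta2 lower, together 50% against 3.10% of all genes. Tagln, an actin-binding protein, changed by -0.72 and passed in all 6 fits without 1 array, whereas Myocd passed in 2 and Acta2 and Myh11 in 0 (adjusted p up to 0.165). Their part in the result of Cdh13 was not tested.

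The other 4 of these cadherins changed by 0.04 to 0.07, with overlapping groups and adjusted p of at least 0.861. They are Cdh16 of kidney, Cdh17 of liver and intestine, Cdh26 of epithelia under allergic inflammation, and Cdh23, which forms the tip link of inner ear hair cells together with Pcdh15. The lowest and highest control means of the 4 were 4.01 for Cdh17 and 5.31 for Cdh16, below every array median. Whether they were above background is not known.

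**Figure D3:**
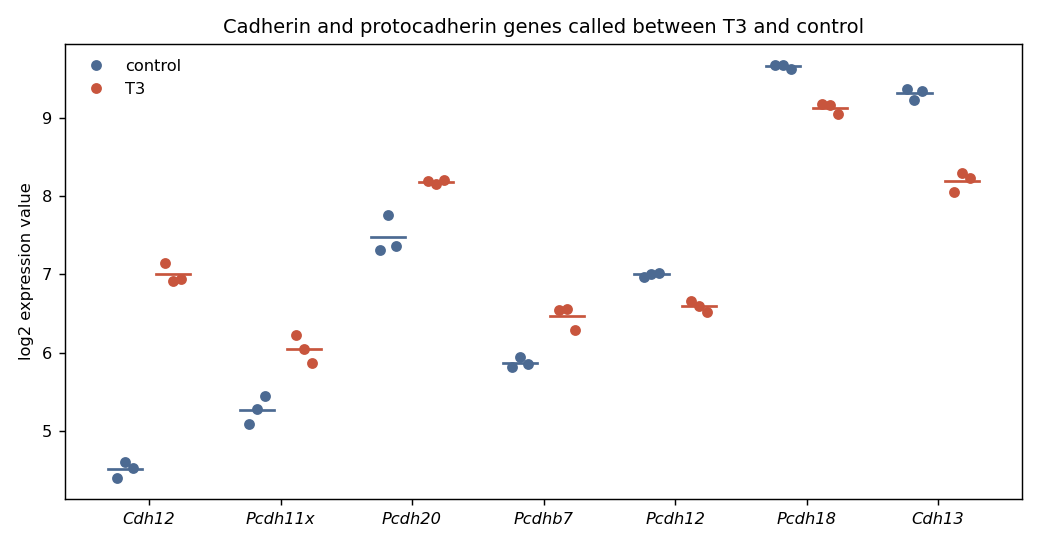
Log2 expression values (vertical axis) of the 7 genes that passed the test (horizontal axis), ordered from the largest rise to the largest fall; points are the 3 control (blue) and 3 T3 (red) arrays and bars their means. The groups did not overlap for any of the 7, and the gap was widest for Cdh12, between 4.60 and 6.91.

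Of the delta-1 protocadherins, which carry a conserved tail motif that binds protein phosphatase 1, Pcdh11x rose. Pcdh11x (probe set 10601569), an X-linked gene of brain neurons, had 5.09, 5.28 and 5.44 in controls and 6.23, 6.05 and 5.87 with T3. The groups were apart, although both spread widely, with an SD of 0.18 in each. The change was 0.78 ± 0.12 (SE), a 1.72-fold difference in signal with adjusted p = 0.0114 (limma), and the call was lost without control replicate 1 (adjusted p = 0.0556). Pcdh1, which is found in airway epithelium and neurons, had 6.94, 7.10 and 6.92 in controls and 7.42, 7.23 and 7.31 with T3. It did not pass, at 0.33 ± 0.08 (SE) and adjusted p = 0.0833, though its groups were apart. Pcdh9 and Pcdh7, both widely expressed in the nervous system, changed by 0.05 (interval -0.11 to 0.22) and 0.0067 (interval -0.17 to 0.18). The second probe set of Pcdh9 changed by -0.04.

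Of the delta-2 protocadherins, whose tails recruit the WAVE complex of actin assembly, Pcdh18 fell. Pcdh18 (probe set 10498018) had 9.68, 9.67 and 9.63 in controls and 9.18, 9.16 and 9.05 with T3. The spread within each group was small beside the gap, and the change of -0.53 ± 0.07 (SE) corresponds to a control signal 1.44 times that with T3 (adjusted p = 0.00655, limma). With Cdh12 and Cdh13 it was 1 of the 3 members whose call held in all 6 fits that left out 1 array. Pcdh18 is also expressed in mesenchyme. The part of the 9 fibroblast and mesenchyme markers given beside Cdh11, of which 6 had a change below 0 and 3 above, was not tested. Pcdh8, or paraxial protocadherin, had 7.74, 7.94 and 7.88 in controls and 7.83, 7.51 and 7.56 with T3, and its change of -0.22 did not pass (adjusted p = 0.391). Pcdh10, of olfactory and striatal axons, changed by 0.21 with groups just apart (adjusted p = 0.451). Pcdh19, an X-linked epilepsy gene in humans, and Pcdh17, of basal ganglia synapses, changed by -0.07 and 0.06 with overlapping groups.

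Of the 3 other protocadherins outside the clusters, Pcdh20 rose and Pcdh12 fell. Pcdh20 (probe set 10421911), a gene of brain neurons, had 7.31, 7.75 and 7.36 in controls and 8.19, 8.16 and 8.20 with T3. The T3 values were close together, while control replicate 2 lay far above the other controls. The change was 0.71 ± 0.12 (SE), 1.63-fold, with adjusted p = 0.0156 (limma). It passed only when control replicate 2 was left out, where it was 0.85, and in the 5 other fits without 1 array the adjusted p reached 0.0747. The part of the neuron and interstitial cell markers given beside Cdh12 in the results of Pcdh20 and Pcdh11x was not tested. Pcdh12 (probe set 10458540), which is found in endothelium and placenta, had 6.97, 7.01 and 7.02 in controls and 6.66, 6.59 and 6.52 with T3.

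The change of Pcdh12 was -0.41 ± 0.07 (SE), with adjusted p = 0.0200 (limma), and the call held in 2 of the 6 fits without 1 array, those that left out control replicate 2 or T3 replicate 1. In the other 4 the adjusted p reached 0.0927. Of the 9 endothelial markers, 7 had a change above 0 and 2 below 0, with a median of 0.13. Called lower were 2 and called higher was 1, together 33.3% against 3.10% of all genes. Egfl7, a matrix protein secreted by endothelium, changed by -0.70 and Kdr, a receptor of VEGF, by -0.41, while Plvap, of fenestrated endothelium, changed by 0.42. The calls of Kdr and Plvap were lost in 3 and 4 of the 6 fits without 1 array (adjusted p up to 0.0776 and 0.114), and that of Egfl7 in 0. The part of endothelial cells in the result of Pcdh12 was not tested. Pcdh15, the partner of Cdh23, changed by 0.13 (interval -0.11 to 0.37), and its second probe set by 0.06.

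Pairs of neighbouring protocadherins were also set side by side. Pcdh20 and Pcdh9 follow each other with 0 protein-coding genes between them in the RefSeq order, and changed by 0.71 and 0.05 with intervals of 0.44 to 0.97 and -0.11 to 0.22. Pcdh10 and Pcdh18 are separated by 1 gene and changed by 0.21 and -0.53. Pcdh1 and Pcdh12, also separated by 1 gene, changed by 0.33 and -0.41. In each of these 3 pairs, which all hold a called gene, the intervals did not overlap. Pcdh8 and Pcdh17, separated by 1 gene and neither called, changed by -0.22 (interval -0.45 to 0.0093) and 0.06 (interval -0.19 to 0.32), and their intervals overlapped.

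The 22 beta cluster genes, single-exon genes that lie in a row, gave 1 call, or 4.55% against 3.10% of all genes. Pcdhb7 (probe set 10455071) had 5.82, 5.94 and 5.86 in controls and 6.54, 6.56 and 6.29 with T3. The groups were apart by a clear gap, and the change was 0.59 ± 0.09 (SE), 1.50-fold, with adjusted p = 0.0122 (limma). The call was lost without control replicate 1 or T3 replicate 2 (adjusted p up to 0.0704). Pcdhb8, its neighbour, had 6.88, 7.24 and 7.14 in controls and 7.35, 7.65 and 7.81 with T3. It also had groups apart, but spread more, and its change of 0.52 ± 0.13 (SE) did not pass (adjusted p = 0.0919). Pcdhb4 changed by 0.29 (adjusted p = 0.163). The largest change below 0 was that of Pcdhb15, from 8.38, 8.37 and 8.23 to 8.18, 8.13 and 7.92, a log2 change of -0.25 that did not pass (adjusted p = 0.241). The median over the 22 genes was 0.0018.

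That median hid an order along the cluster, which was noticed after the values were seen and so was not tested. In genomic order, all 10 genes from Pcdhb2 to Pcdhb11 had a log2 change above 0, from 0.11 for Pcdhb3 to 0.59 for Pcdhb7, with a median of 0.24. Of the 11 genes from Pcdhb12 to Pcdhb22, 10 had a change below 0, down to -0.25 for Pcdhb15, with a median of -0.12, and Pcdhb18 was at 0.0058. Pcdhb1, at the start, had a change of -0.0021.

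The mean log2 value of Pcdhb2 to Pcdhb11 was 6.40 ± 0.10 (SD, n = 3) on the control arrays and 6.68 ± 0.08 (SD, n = 3) on the T3 arrays, and all T3 arrays lay above all controls. The mean of Pcdhb12 to Pcdhb22 was 7.29, 7.39 and 7.27 on the control arrays and 7.19, 7.22 and 7.23 on the T3 arrays, all below all controls. The stretches were divided where the sign changed, so signs and means that lie apart follow in part from that choice and give no support to the order. In alternative fits of all or 5 of the same arrays that kept both stretches whole, all 10 genes were above 0. There the number below 0 among the 11 was lowest at 8, with array weights or without control replicate 2. It was 11 with centring on the 75th percentile or without control replicate 1 or 3. Without the dimmest 50% of genes only 1 of the 10 was kept, above 0, and 8 of the 11, of which 7 were below 0. Genes of the cluster resemble each other in sequence, so probes may share signal among them, and the part of shared signal in this order was not tested. The 2 stretches also differed in signal, with control means of 5.83 to 7.09 and of 5.91 to 8.33, and the part of signal level in this order was not tested.

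**Figure D4:**
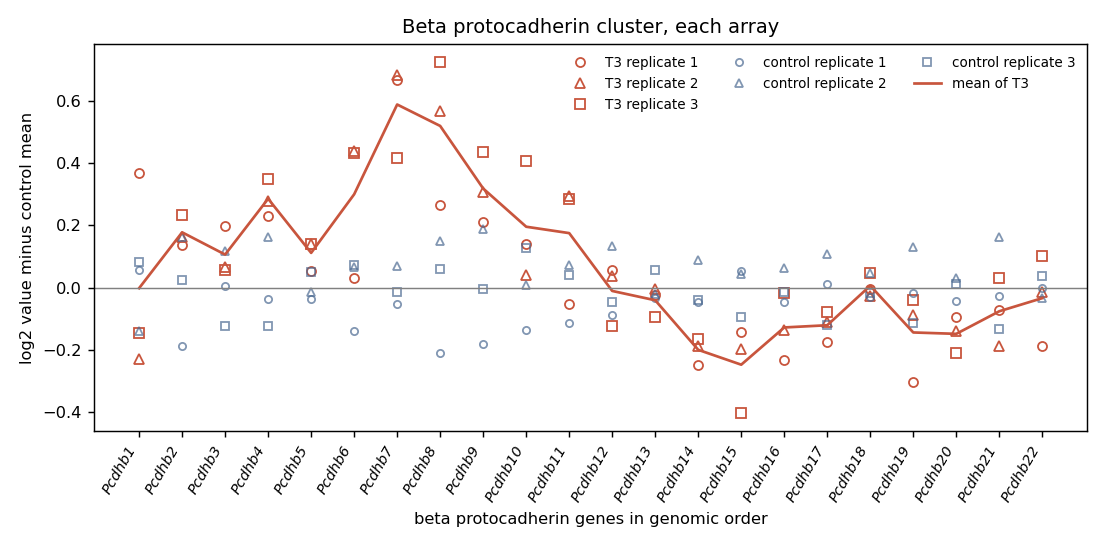
Log2 value minus the mean of the 3 controls (vertical axis) for the 22 beta protocadherin genes in genomic order (horizontal axis); symbols are single arrays, T3 in red and control in blue, and the line joins the T3 means. The T3 mean is above 0 from Pcdhb2 to Pcdhb11, highest at Pcdhb7 with 0.59, and at or below 0 from Pcdhb12 on except for Pcdhb18 at 0.0058.

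Partners of the cadherins are given from lists of known genes, chosen with earlier results of these data known. The genes named from them are mostly those called or of smallest p. Of 23 catenins and linked cytoplasmic proteins, 0 passed the limma test, against 3.10% of all genes, and 7 or 30.4% had an unadjusted p under 0.05, against 13.7% of all genes. Ctnnb1, or beta-catenin, which links classical cadherins to alpha-catenin and also acts in Wnt signalling, had control values of 11.62, 11.62 and 11.62 and T3 values of 11.66, 11.60 and 11.61. Ctnnd1, or p120-catenin, which keeps cadherins at the surface, changed by 0.0077. Ajuba, a LIM protein of junctions, had groups apart and a change of -0.51 ± 0.12 (SE) that did not pass (adjusted p = 0.0699). The next by p were Ctnna3, an alpha-catenin of heart, at -0.22, Camsap3, which anchors microtubules, at 0.21 and Jup, or plakoglobin, at 0.23, with adjusted p of at least 0.177.

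Of 24 other genes of the cadherin superfamily, 2 rose and 1 fell, together 12.5% against 3.10% of all genes. Clstn2, a calsyntenin of synaptic membranes, had 7.53, 7.72 and 7.58 in controls and 8.41, 8.29 and 8.47 with T3, a change of 0.79 ± 0.08 (SE) with adjusted p = 0.00258 (limma), and passed in all 6 fits without 1 array. Clstn3, of the same family, changed by 0.44 (adjusted p = 0.0218) and passed only without control replicate 2 (adjusted p up to 0.115). Dchs1, a large cadherin that pairs with Fat4 in planar polarity, changed by -0.38 (adjusted p = 0.0249) and passed only without control replicate 3 (up to 0.133). Fat1, a giant cadherin of cell edges, changed by -0.34 and did not pass (adjusted p = 0.133).

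Of 18 transcriptional repressors of cadherins and proteases that cut them, 1 fell, or 5.56% against 3.10% of all genes. Twist1, a repressor of E-cadherin that is also on the fibroblast and mesenchyme list, changed by -0.49 ± 0.09 (SE; adjusted p = 0.0285, limma) and passed only without control replicate 1 (adjusted p up to 0.117). Snai2 and Zeb1, repressors of the same kind, changed by -0.28 and -0.17 with groups apart and did not pass, and Psen2, a presenilin, changed by 0.17. Of 20 genes that act in the choice of clustered protocadherins or below them, 0 passed (limma), against 3.10% of all genes. An unadjusted p under 0.05 was reached by 1, or 5%, against 13.7% of all genes. This was Cyfip2 of the WAVE complex at 0.27 (adjusted p = 0.196). Ptk2b, Stag1 and Dnmt1 changed by -0.14, -0.16 and -0.08. Ctcf, the insulator protein that loops the clustered promoters, changed by -0.04 with overlapping groups.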

How the data were processed

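Total RNA of 6 samples was labelled with biotin and hybridised to Affymetrix Mouse Gene arrays. The authors deposited log2 expression values for 35556 probe sets, made with RMA and Partek 6.5, per the submitters' processing notes. No source used here gives the settings or the genome build. RMA sets the arrays to a common distribution, so a shift shared by most genes is lost, and differences of dim genes are understated. Groups and replicate numbers come from the sample titles. The labels do not say that samples are independent cultures, so the p-values here reflect only how far these samples spread, which may be technical.

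The platform annotation gave 1 symbol to 21789 probe sets and several to 1621. Genes with more than 1 probe set (999) were represented by the brightest. limma 3.58.1 in R 4.3.3 (lmFit, eBayes, no filter, no block) tested T3 minus control over 19938 genes; SE, intervals and adjusted p come from that fit, and SD is over 3 arrays. On simulated data with 19938 genes, 3 arrays against 3 and 200 changed genes, changes of 0.5 were recovered in 52.7% and of 1 in 92.8% of cases, and 4.38% of calls were false. Sequences and gene order are from RefSeq.

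The members and lists were chosen with earlier results of these data known. Named were all numbered and non-clustered members; of the beta cluster, called genes, the brightest, the extremes and the 3 of smallest p; and of each partner list, called genes and the 4 of smallest p. Pcdhb1, Pcdhb3 and Pcdhb18, Ctnnb1, Ctnnd1, Ctcf and the cell type markers given with values were named after their values were seen. Alternatives were the replicate block, other scalings, filters on dim genes, the mean of probe sets, trend and robust fitting, array weights, a threshold of 0.10 and leaving out each array.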

Additional observations from a re-analysis of the deposited data

Results flagged for a closer look

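The alpha protocadherins entered no comparison, because their 1 probe set (10455019) carries 14 symbols of that cluster. It showed a signal outside the measurements used: its log2 values were 6.29, 6.30 and 6.29 in controls and 6.58, 6.38 and 6.48 with T3, so every T3 array was above every control, with a difference of 0.19. In a fit over all annotated probe sets, chosen after seeing the data, this did not pass (limma, adjusted p = 0.334).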

How the results depend on the processing

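Cdh12, Cdh13, Pcdh18, Pcdh11x, Pcdhb7 and Pcdh20 kept their direction and their call under every alternative that kept them and all 6 arrays, with Cdh12 between 2.47 and 2.54 and Cdh13 between -1.14 and -1.09. Over all refits of the 7 called genes, 88 kept the call, 13 lost it and 0 turned in direction. Deviations of same-numbered arrays had correlations of 0.18, 0.017 and 0.00017, and control replicate 2 was closest to T3 replicate 3. The 0.18 of replicate 1 was the highest of all pairs. With 3 arrays per group these values cannot show whether same-numbered samples shared a preparation, which the labels do not say. With the replicate block 472 genes were called, among them 2 numbered cadherins and 5 protocadherins, with Pcdh12 no longer passing (adjusted p = 0.0537, limma) and Pcdhb8 passing (adjusted p = 0.0283).

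Array weights called 3548 genes, 7 numbered cadherins and 15 protocadherins, and the cause was not tested. A threshold of 0.10 called 962 genes, and a fit over each annotated probe set, added after seeing the data, called 537. Calls were higher with T3 in 73.5% of cases, in 81.5% with centring on the median and in 67.6% with centring on the 75th percentile. Without the dimmest 50% of genes, which leaves fewer genes and drops Cdh12, 2 numbered cadherins (Cdh13 and Cdh24, both lower) and 3 protocadherins were called. Without 1 array, 191 to 640 genes, 2 to 3 numbered cadherins and 1 to 5 protocadherins were called; the protocadherin count was 1 without control replicate 1, 2 without T3 replicate 2, and 3 without control replicate 3 or T3 replicate 3.

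The median log2 change of the numbered cadherins was -0.13 without the dimmest 50% of genes and -0.015 to 0.059 without 1 array. That of the protocadherins was 0.059 with centring on the median, 0.0055 with centring on the 75th percentile, 0.052 and -0.053 without the dimmest 25% and 50%, 0.0069 with the mean of probe sets, and 0.020 to 0.081 without 1 array. The causes were not tested.

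Turned in sign, all for genes that were not called, were the following. With array weights Cdh26 was at -0.0017, Cdh6 at -0.0051, Cdh15 at -0.037, Cdh2 at -0.063, Cdh7 at 0.012, Pcdh19 at 0.14, Pcdh17 at -0.059 and Pcdh7 at -0.032. With centring on the 75th percentile Cdh15 was at -0.0056, Cdh2 at -0.0069, Cdh8 at -0.0036 and Pcdh7 at -0.017. Cdh7 was at 0.024 with renewed quantile normalization and at 0.026 with centring on the median, and Pcdh7 at -0.0013 with the former. Without 1 array, the ranges were -0.031 to 0.16 for Cdh1, -0.037 to 0.055 for Cdh15, -0.016 to 0.15 for Cdh16, -0.067 to 0.16 for Cdh17, -0.082 to 0.073 for Cdh2, -0.030 to 0.099 for Cdh23, -0.034 to 0.11 for Cdh6, -0.055 to 0.042 for Cdh7, -0.10 to 0.23 for Cdh8, -0.033 to 0.12 for Pcdh17, -0.17 to 0.029 for Pcdh19 and -0.056 to 0.048 for Pcdh7. The 3 arrays per group limit the precision, and with no detection calls the dimmest genes may lie in the background.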

Other observations

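Cdh11 is also named on 3 probe sets that carry 2 further symbols each. They changed by 0.06, -0.04 and 0.05 between control and T3, with overlapping groups, where the probe set of Cdh11 alone changed by -0.19. Control replicate 2 and T3 replicate 1 held the largest deviation from their group mean for 15 and 20 of the 57 genes. The mean deviation of the 34 protocadherins was 0.08 on control replicate 2 and -0.07 on control replicate 1.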
